A study of Mus musculus with 21 samples.

Results

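The libraries described here hold tumor-infiltrating monocytes (TIMs) from the lungs of mice carrying either of 2 transplanted models of lung squamous cell carcinoma (LUSC): lungs seeded with the LN4K1 line and primary lung tumors of the LN2E1 line. All 5 LN4K1 lung libraries and all 5 LN2E1 primary tumor libraries were taken, by their labels, so that 10 of the 21 RNA-seq libraries of the series entered the comparison. LN4K1 cells, derived from KLN-205, were injected intravenously at 300000 cells per mouse into DBA2 mice. KAL-LN2-E1 cells, called LN2E1 here and derived from the KAL line, were injected at 500000 cells per mouse directly into the lungs of FVB mice. Each model rests on 1 cell line and 1 strain. The methods describe adult animals of either sex, and the sources name no altered allele in the mice. Monocytes were enriched with an isolation kit and sorted as live CD45+ CD11b+ Ly6C-high Ly6G- cells, with Siglec-F+ cells excluded according to the study. The remaining libraries were TIMs of LN2E1 lymph node metastases (n = 5) and inflammatory monocytes of the bone marrow (BM IMs) of tumor-free DBA2 mice (n = 3) and FVB mice (n = 3), the latter 2 groups serving here as the measure of how monocytes of the strains differ without a tumor. Each TIM group had been set by the study against BM IMs of its own strain, and the direct comparison asks in which genes monocytes of the same organ differed between the models. Strain, cell line, route of injection, number of cells injected and kind of lesion (seeded lungs or a primary tumor) changed together between the groups. Their parts in a difference cannot be told apart.

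Inflammatory monocytes leave the bone marrow through the chemokine receptor CCR2 and enter inflamed or tumor-bearing tissue, where they can mature into macrophages, present antigen, secrete cytokines and remodel the extracellular matrix. Interferons, low oxygen and lipids taken up from dying cells each switch on a well-known set of genes in such cells. Inbred mouse strains also carry different alleles of many immune genes, above all in the major histocompatibility complex (MHC) on chromosome 17, and some of these alleles are silent.

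The sort and the strain labels were checked first. Ptprc, which encodes CD45, was at 1501 ± 240.3 CPM (a gene's read count scaled to the size of its library, mean ± SD, n = 5) in LN4K1 lung TIMs and 1923 ± 117 CPM in LN2E1 primary tumor TIMs, and Ly6c2, the Ly6C gene of classical monocytes, at 1475 ± 209 and 1246 ± 111 CPM. Itgam, which encodes CD11b, was lower in LN4K1 lung TIMs, at 964, 1054, 328, 863 and 689 CPM, than in primary tumor TIMs, at 1608, 1295, 1501, 1398 and 1246 CPM (log2 fold change -0.86, SE 0.26, adjusted p = 0.0207, edgeR). The groups did not overlap for Itgam, and LN4K1 lung replicate 3 was the lowest library, without which the log2 fold change was -0.67 (adjusted p = 0.00133). Ly6g, the gene of the Ly6G gate, was not analysed here. Siglec5, the table's name for the Siglec-F gene, stayed at or under 4.65 CPM in all 10 libraries. Klrd1, part of an NK cell receptor whose gene is deleted in a DBA/2 substrain, was at 0.0347, 0.0627, 0.0813, 0.0307 and 0.166 CPM in the 5 DBA2 libraries and 3.97, 5.67, 2.17, 6.21 and 5.33 CPM in the 5 FVB libraries. H2-Ea-ps, the alpha chain of the MHC class II molecule I-E, which some mouse strains cannot make, was at 350.2, 408, 630.4, 739 and 336 CPM in LN4K1 lung TIMs and 89.5, 76.8, 60.6, 66.7 and 55.7 CPM in primary tumor TIMs. Both genes separated the labelled strains in all 10 libraries.

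Total counts lay between 82555019 and 101043568 per library in LN4K1 lung TIMs and between 87268067 and 95041694 in primary tumor TIMs, and genes with at least 10 counts numbered 12015 to 13695 and 13616 to 14512. LN4K1 lung replicate 3 stood apart: it had the fewest such genes, and the correlation of its log2 CPM over 13845 genes with the other LN4K1 lung libraries was 0.911 to 0.921, against 0.960 to 0.971 over the 6 pairs of those other 4. The labels do not say that the 5 libraries of a group came from separate mice, and the study's methods speak of technical replicates, so p-values measure only the spread between these libraries.

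In the direct comparison, 5799 of 13845 genes tested (41.9%) differed at an adjusted p under 0.05 by edgeR's quasi-likelihood test, 2973 higher (21.5%) and 2826 lower (20.4%) in LN4K1 lung TIMs. Among those that differed by more than 2-fold, 778 were higher and 1668 lower. Differentially expressed genes (DEGs), defined with the study's stricter thresholds as an adjusted p below 0.0001 together with a more than 2-fold change, numbered 437, 180 higher (1.3% of all tested) and 257 lower (1.86%). DESeq2 with the same thresholds, but without the filter on low counts, gave 1745 DEGs. Of these, 513 (29.4%) were higher, against 41.2% higher with edgeR. Its median log2 fold change over all its genes was -0.20, against -0.03 over the filtered genes of edgeR. Without that filter, the median with edgeR was -0.15. The number of DEGs was 645 without LN4K1 lung replicate 3 and between 189 and 271 without any 1 of the other 9 libraries, while the number of genes that differed at an adjusted p under 0.05 stayed between 4585 and 6764. The 5 values of one group lay wholly above or below those of the other for 4929 genes (35.6%).

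BM IMs of tumor-free mice gave the difference between the strains alone, from 6 libraries that the TIM comparison did not use. There, 2719 of 12905 genes (21.1%) differed at an adjusted p under 0.05. Of 397 TIM DEGs that were tested in both comparisons, 196 (49.4%) also differed between the strains' BM IMs in the same direction and 8 in the opposite direction. The 196 genes were 7.34% of the 2672 genes that differed between BM IMs and were tested in both. The overlap was uneven by direction: 126 of 179 DEGs higher in LN4K1 lung TIMs (70.4%) were also higher in DBA2 BM IMs, whereas 70 of 218 DEGs lower in LN4K1 lung TIMs (32.1%) were also lower in DBA2 BM IMs. Over all 12534 genes tested in both, 1465 were higher and 1207 lower in DBA2 BM IMs. Among all genes that differed between TIMs, and not only DEGs, 5252 were tested in both. Of these, 853 (16.2%) also differed between BM IMs in the same direction and 416 in the opposite direction. A further 40 TIM DEGs, 39 of them lower in LN4K1 lung TIMs, had too few counts in BM IMs to be tested there. An interaction term tested whether the TIM and BM differences of a gene were unequal. It passed for 258 of the 397 DEGs (65.0%) and for 4022 of the 15182 genes tested for it (26.5%). The DEGs were chosen for a large TIM difference in the same libraries, and that difference is part of the interaction. The larger share among DEGs is therefore no independent result. Across the 397 DEGs the log2 fold changes of the 2 comparisons had a Pearson correlation of 0.78, and across all 12534 genes tested in both it was 0.36, given as descriptions over genes that share libraries. Leaving out single BM IM libraries moved the number of genes that differed between the strains from 1115 without FVB BM IM replicate 2 to 4828 without FVB BM IM replicate 3, with 1371, 1773, 1247 and 1181 without FVB replicate 1 and DBA2 replicates 1, 2 and 3. The number of DEGs shared with the strain difference then stayed between 158 and 202.

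**Figure D1:**
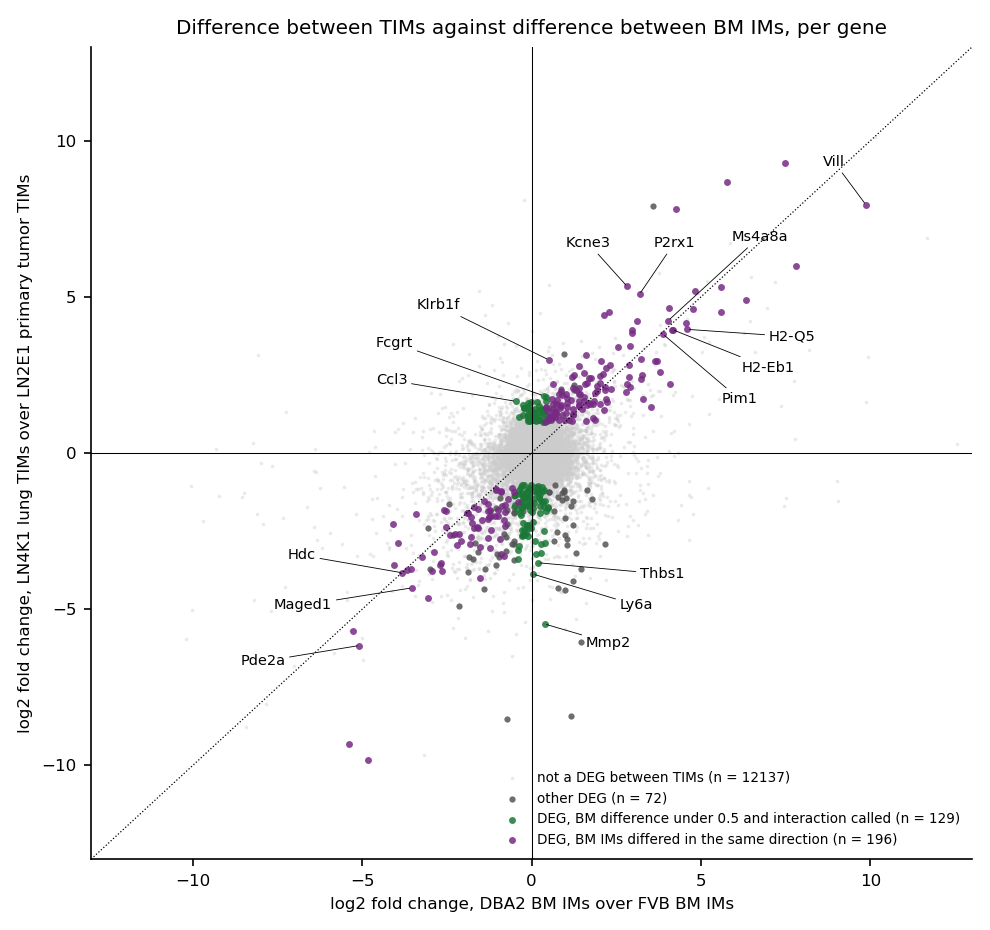
Each point is 1 of 12534 genes, with the log2 fold change of DBA2 over FVB BM IMs on the horizontal axis and of LN4K1 lung over LN2E1 primary tumor TIMs on the vertical axis. Purple points (196) are TIM DEGs that also differed between BM IMs in the same direction, and the dotted line marks equal change. Green points (129) are DEGs outside the purple set with a BM difference under 0.5 and a called interaction, which cluster around 0 on the horizontal axis and reach farther down than up, and grey points are other DEGs (dark, 72) and genes that were not DEGs (light).

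The genes of the first kind described first are the 5 per direction with the largest changes in both marrow and tumor. H2-Eb1 (chr17:34305867-34316674, plus strand, GRCm38 as are all coordinates of genes here), the beta chain of I-E, had 305, 350.2, 269, 592 and 276 CPM in LN4K1 lung TIMs and 26.7, 22, 23.5, 23.2 and 19.9 CPM in primary tumor TIMs (log2 fold change 3.95, SE 0.23, adjusted p = 8.75e-07). In BM IMs it was at 42.4 ± 5.88 CPM in DBA2 and 2.43 ± 1.24 CPM in FVB mice (n = 3 each), a log2 fold change of 4.16. Every LN4K1 lung library was more than 10-fold above every primary tumor library. Pim1 (chr17:29490753-29496112, plus strand), a serine/threonine kinase induced by cytokine signaling, was at 2072, 2162, 1376, 2290.1 and 1935 CPM against 127, 158, 133, 132 and 150.2 CPM (log2 fold change 3.81, SE 0.15, adjusted p = 8.13e-08), and at 529.6 ± 197 against 36.5 ± 6.27 CPM in BM IMs. H2-Q5 (chr17:35394126-35397800, plus strand), a class I gene of the Q region that the annotation lists as a polymorphic pseudogene, was at 247, 216, 179.6, 209.6 and 197 CPM against 15.2, 14.9, 12.0, 12.8 and 12.3 CPM (log2 fold change 3.96, SE 0.13, adjusted p = 1.9e-08). The groups were again far apart, and the BM log2 fold change was 4.6. Vill (chr9:119052778-119071525, plus strand), a villin-like actin-binding gene, was close to absent in FVB cells: LN4K1 lung TIMs had 251, 242, 160.3, 226 and 271 CPM, primary tumor TIMs 0.583, 1.29, 0.783, 0.904 and 1.07 CPM (log2 fold change 7.95, SE 0.26, adjusted p = 1.9e-08), DBA2 BM IMs 173 ± 46.2 CPM and FVB BM IMs 0.183 ± 0.127 CPM. Ms4a8a (chr19:11067471-11081102, minus strand), of the family of membrane-spanning 4A genes, was at 227 ± 66.3 against 11.9 ± 2.68 CPM, with log2 fold changes of 4.24 in TIMs and 4.04 in BM IMs.

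In the other direction, Pde2a (chr7:101421691-101512827, plus strand), a phosphodiesterase that degrades cyclic nucleotides, was at 1.47, 1.92, 0.0948, 1.39 and 1.96 CPM in LN4K1 lung TIMs and 102, 77.8, 109.7, 90.8 and 111 CPM in primary tumor TIMs (log2 fold change -6.16, SE 0.55, adjusted p = 1.54e-05), and at 2.84 ± 0.794 against 97.6 ± 33.5 CPM in BM IMs. Its lowest value by far was that of LN4K1 lung replicate 3. Hdc (chr2:126593667-126619299, minus strand), which makes histamine from histidine, was at 9.10, 7.45, 5.69, 10.1 and 4.43 CPM against 74.0, 90.8, 132, 142 and 85.7 CPM (log2 fold change -3.84, SE 0.28, adjusted p = 3.94e-06), with a log2 fold change of -3.81 in BM IMs. Its levels in BM IMs were 1.68, 0.966 and 0.691 CPM in DBA2 and 15.4, 13.2 and 19.0 CPM in FVB mice, below the TIM level of the same strain in every library. Maged1 (chrX:94535474-94542143, minus strand), a MAGE family gene, was at 4.31 ± 2.15 against 85.5 ± 21.6 CPM (log2 fold change -4.32, SE 0.40, adjusted p = 1.89e-05), with -3.54 in BM IMs. Ddx23 (chr15:98645134-98662894, minus strand), an RNA helicase of the spliceosome, was at 6.76 ± 2.64 against 92.4 ± 4.27 CPM, and its log2 fold change was -3.78 in TIMs and -2.94 in BM IMs. Gdpd3 (chr7:126766334-126775649, plus strand), a lysophospholipase D, was at 10.4 ± 2.52 against 104 ± 8.23 CPM, with log2 fold changes of -3.32 and -3.24. These 10 genes were chosen for log2 fold changes of the same sign in TIMs and BM IMs, so the shared sign is no result. The interaction, which tests whether the 2 log2 fold changes differ, was called for H2-Q5 (-0.67, adjusted p = 0.0326) and Vill (-1.95, adjusted p = 0.00899). It had adjusted p-values between 0.134 and 0.976 for the other 8.

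Other strain-shared genes had unequal differences in TIMs and BM IMs, with the interaction called for each of those named next except Paip1. Kcne3 (chr7:100176502-100184869, plus strand), a beta subunit of voltage-gated potassium channels, was at 318, 288, 488, 337 and 384 CPM in LN4K1 lung TIMs and 9.03, 7.30, 8.80, 7.26 and 12.2 CPM in primary tumor TIMs (log2 fold change 5.33, SE 0.21, adjusted p = 6.18e-08). In BM IMs it was at 293 ± 23.5 CPM in DBA2 and 42.3 ± 7.76 CPM in FVB mice, and the interaction was 2.48, SE 0.26, adjusted p = 3.41e-05. P2rx1 (chr11:72999103-73015200, plus strand), an ATP-gated cation channel, behaved alike, at 103 ± 18.9 against 3.01 ± 0.818 CPM in TIMs and 137 ± 10.9 against 15.3 ± 3.19 CPM in BM IMs (interaction 1.87, SE 0.31, adjusted p = 0.000869). Nim1 (chr13:119710094-119755882, minus strand), a protein kinase gene, was at 75.0 ± 10.6 against 3.45 ± 1.08 CPM, and its log2 fold change was 4.43 in TIMs and 2.13 in BM IMs (interaction 2.27, adjusted p = 0.000826). Paip1 (chr13:119428601-119458218, plus strand), whose product binds the poly(A)-binding protein and whose gene lies on the same stretch of chromosome 13, was at 55.4 ± 11.2 against 3.81 ± 1.18 CPM (log2 fold change 3.85, SE 0.25, adjusted p = 1.91e-06; interaction adjusted p = 0.0812). Rab35 (chr5:115631908-115647736, plus strand), a small GTPase of endosomal recycling, was at 94.2 ± 9.25 against 6.10 ± 0.210 CPM, with 3.94 in TIMs and 2.98 in BM IMs (interaction 0.93, adjusted p = 0.000535). Mocs1 (chr17:49428362-49455435, plus strand), of molybdenum cofactor synthesis, was lower, at 3.84 ± 0.646 against 51.8 ± 8.52 CPM (log2 fold change -3.76 in TIMs and -2.64 in BM IMs, interaction -1.15, adjusted p = 0.0360). Gpr132 (chr12:112850873-112868228, minus strand), a G protein-coupled receptor, was at 14.7 ± 2.19 against 235 ± 28.0 CPM (log2 fold change -4.01) and differed less in BM IMs (-1.53; interaction -2.52, adjusted p = 0.000108).

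By position, chromosome 17 held 28 of the 193 strain-shared DEGs with a mapped position (14.5%) but 5.26% of the genes tested. Of the 28, 11 lay between H2-K1 and H2-M2 (chr17:33996017-37483552), the stretch that holds the MHC. Reads had been aligned to mm10, the genome of C57BL/6 mice, and the part that DBA2 and FVB alleles play in counts of single genes was not tested. Counts of the H2 genes, which are close copies of each other, and of genes whose exons overlap another gene in this unstranded protocol, among them Kcne3, Pim1, Gdpd3, Pde2a and Thbs1, are likewise uncertain.

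The second kind of DEG had a called interaction and a BM log2 fold change within 0.5 of 0, and was not already among the strain-shared DEGs. Of 129 such genes 83 were lower and 46 higher in LN4K1 lung TIMs. Ly6a (chr15:74994877-74998031, minus strand), which encodes the interferon-inducible surface protein Sca-1, was at 41.1, 35.4, 32.0, 43.8 and 39.2 CPM in LN4K1 lung TIMs and 534, 654, 537, 634 and 438 CPM in primary tumor TIMs (log2 fold change -3.88, SE 0.14, adjusted p = 4.09e-08). Marrow levels were low in both strains, 2.82 ± 0.704 CPM in DBA2 and 2.78 ± 0.545 CPM in FVB mice, and the interaction was -3.95, SE 0.26, adjusted p = 1.2e-06. Thbs1 (chr2:118111876-118127133, plus strand), the matrix protein thrombospondin 1, was at 528, 369, 354, 523 and 412 CPM against 4994, 4189.9, 6191, 5012 and 4446 CPM (log2 fold change -3.51, SE 0.17, adjusted p = 2.02e-07), and at 585 ± 417 and 513 ± 349 CPM in BM IMs (interaction -3.75, adjusted p = 0.00068). The LN4K1 lung libraries lay within the range of the 6 marrow libraries, and all 5 primary tumor libraries stood above it. Mmp2 (chr8:92827291-92853420, plus strand), gelatinase A, was at 1.35, 0.533, 0.420, 2.87 and 1.91 CPM against 40.6, 86.3, 32.0, 87.4 and 68.4 CPM (log2 fold change -5.47, SE 0.57, adjusted p = 4.22e-05; interaction -5.87, adjusted p = 0.000662). Mmp2 and Cav1 (chr6:17306335-17341452, plus strand), the caveolar coat protein, were highest in primary tumor replicates 2 and 4, where Cav1 was at 75.2 and 62.6 CPM, and the fibroblast markers described with the other cell types were highest in these libraries too. Sipa1l1 (chr12:82169320-82451786, plus strand), a regulator of Rap GTPases, was at 6.71 ± 1.56 against 60.9 ± 10.3 CPM (log2 fold change -3.19, SE 0.19, adjusted p = 7.84e-07; interaction -3.51, adjusted p = 2.25e-05), and the transcription factor Ets1 (chr9:32636221-32757820, plus strand) at 4.39 ± 2.12 against 37.7 ± 6.07 CPM (log2 fold change -3.11, SE 0.34, adjusted p = 6.16e-05; interaction -2.73, adjusted p = 0.00262). Among DEGs with a larger but uncalled BM difference, Fam46c (chr3:100451628-100489324, minus strand), a poly(A) polymerase, was at 3.96 ± 1.30 against 66.8 ± 13.9 CPM (log2 fold change -4.09, SE 0.26, adjusted p = 1.34e-06; BM log2 fold change 1.21, adjusted p = 0.120; interaction -5.33, adjusted p = 3.24e-05). Cav1 was at 3.90 ± 1.74 against 51.5 ± 17.9 CPM (log2 fold change -3.73, SE 0.40, adjusted p = 4.96e-05), with a BM log2 fold change of -3.00 that did not pass (adjusted p = 0.289), and its interaction was not called (adjusted p = 0.776).

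The 46 genes of this kind that were higher in LN4K1 lung TIMs had a median log2 fold change of 1.25, against -1.67 for the 83 that were lower. Fcgrt (chr7:45092990-45103851, minus strand), the neonatal Fc receptor that recycles IgG and albumin, was at 332, 349, 307, 339 and 375 CPM against 108, 99.2, 83.2, 84.9 and 99.4 CPM (log2 fold change 1.83, SE 0.10, adjusted p = 4.92e-07), and at 226 ± 35.2 and 180.1 ± 22.1 CPM in BM IMs (interaction 1.45, adjusted p = 7.78e-05). All 5 primary tumor libraries lay below every library of the other 3 groups. Ccl3 (chr11:83647844-83649355, minus strand), a chemokine for monocytes and T cells, was at 293, 371, 574, 363 and 429 CPM against 134, 128, 133, 114 and 130.5 CPM (log2 fold change 1.66, SE 0.16, adjusted p = 2.21e-05; interaction 2.09, adjusted p = 0.000369). Klrb1f (chr6:129045901-129057464, plus strand), a lectin-like receptor gene, was at 25.1 ± 4.70 against 3.14 ± 1.09 CPM (log2 fold change 2.99, SE 0.25, adjusted p = 1.06e-05; interaction 2.45, adjusted p = 0.000241), although its small BM difference of 0.50 also passed the test (adjusted p = 0.0399), which placed it among the strain-shared DEGs. Cbx8 (chr11:119036305-119040969, minus strand), a Polycomb subunit, was at 16.4 ± 2.85 against 5.16 ± 0.985 CPM (log2 fold change 1.66, SE 0.18, adjusted p = 5.15e-05; interaction 1.19, adjusted p = 0.00279). N6amt1 (chr16:87354185-87368742, plus strand), a methyltransferase gene, was at 21 ± 3.45 against 6.70 ± 1.0 CPM (log2 fold change 1.64, SE 0.16, adjusted p = 2.21e-05; interaction 1.45, adjusted p = 0.000817). All genes named for this and the preceding kind passed at an adjusted p under 0.05 in each of the 10 fits without 1 TIM library.

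**Figure D2:**
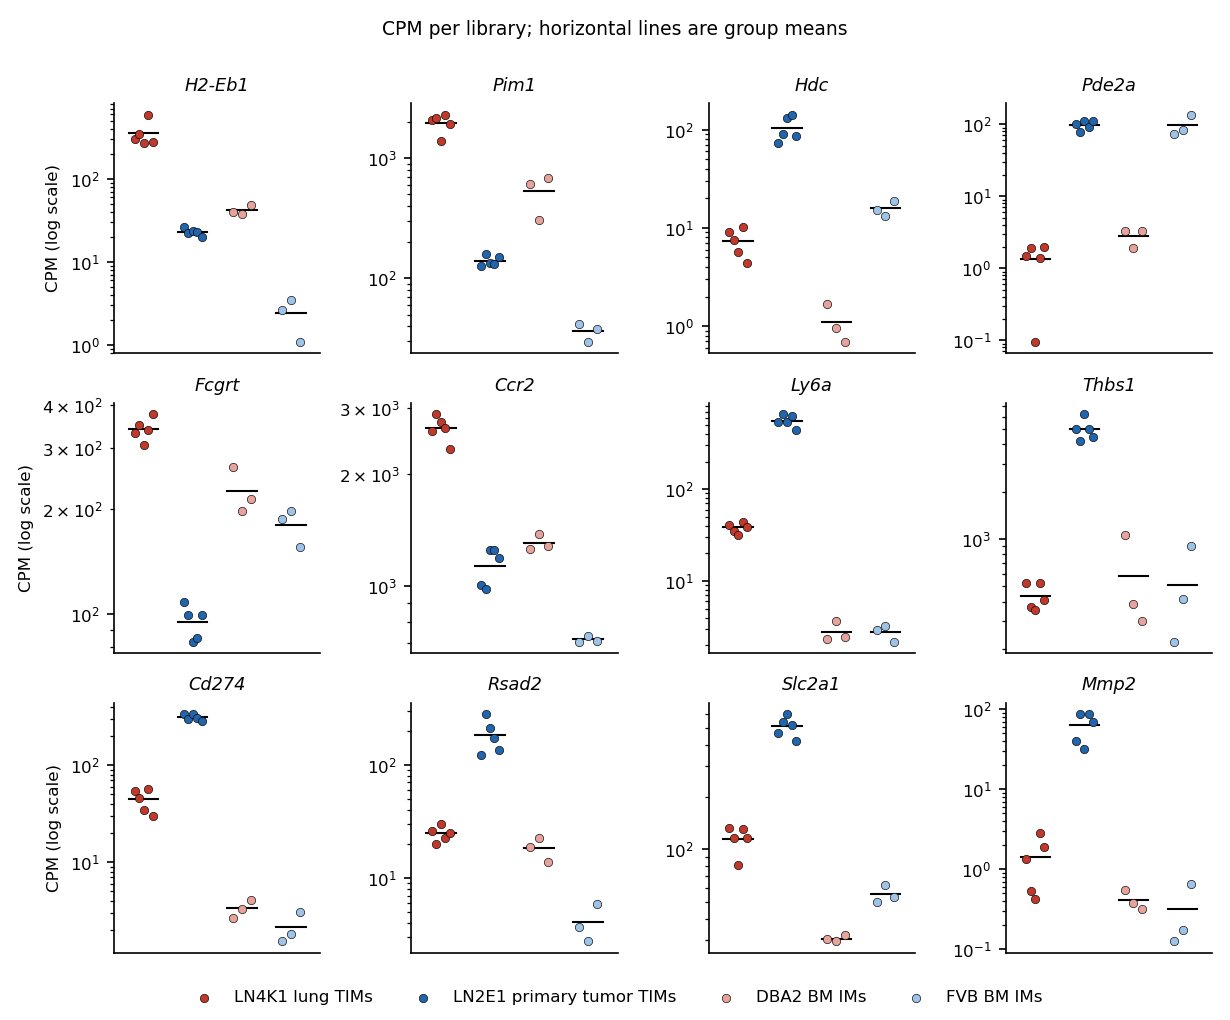
Each panel gives the CPM of 1 gene on a log axis in every library of LN4K1 lung TIMs (red, n = 5), LN2E1 primary tumor TIMs (blue, n = 5), DBA2 BM IMs (pink, n = 3) and FVB BM IMs (pale blue, n = 3), with a line at each group's mean. For H2-Eb1, Pim1, Hdc and Pde2a the marrow of the strains differed in the same direction as the tumors, whereas for Ly6a, Thbs1 and Mmp2 the marrow groups lay at one level and primary tumor TIMs stood above all others.

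Counts of list members from here on stand beside shares of 20.4% lower and 21.5% higher over all genes tested between TIMs. Counts in BM IMs stand beside 1484 genes higher and 1235 lower in DBA2 mice of 12905 tested. Counts of called interactions stand beside 2014 above 0 and 2008 below 0 of 15182 genes. The response to type I interferons, an antiviral program, differed in opposite directions in marrow and tumor. Of its 30 listed genes, 16 were lower and 3 higher in LN4K1 lung TIMs, with a median log2 fold change of -0.54, whereas 28 of the 30 were higher in DBA2 than in FVB BM IMs and none lower at an adjusted p under 0.05 (median 1.74). The interaction was below 0 at an adjusted p under 0.05 for 29 of the 30. Rsad2 (chr12:26442746-26456452, minus strand), the antiviral enzyme viperin, was at 26.3, 20.1, 29.8, 22.6 and 25.1 CPM in LN4K1 lung TIMs and 122, 279.7, 212, 171 and 133 CPM in primary tumor TIMs (log2 fold change -2.90, SE 0.23, adjusted p = 7.01e-06). In BM IMs the order was the reverse, 18.8, 22.8 and 13.9 CPM in DBA2 mice and 3.70, 2.78 and 5.96 CPM in FVB mice (log2 fold change 2.17, SE 0.32, adjusted p = 0.00345), so that Rsad2 in LN4K1 lung TIMs overlapped with DBA2 marrow while every primary tumor library stood far above FVB marrow (interaction -5.11, SE 0.42, adjusted p = 7.22e-06). Ifi44 (chr3:151730922-151749960, minus strand), an interferon-induced gene of little-known function, was at 5.71, 5.57, 5.46, 5.91 and 3.36 against 12.4, 22.6, 12.1, 20.5 and 13.9 CPM (log2 fold change -1.65, SE 0.23, adjusted p = 0.000311), but at 6.03 ± 1.72 in DBA2 and 0.288 ± 0.253 CPM in FVB BM IMs (log2 fold change 4.40, SE 0.74, adjusted p = 0.00588; interaction -6.08, adjusted p = 7.75e-05). Ifit2 (chr19:34550694-34576419, plus strand), an interferon-induced protein with tetratricopeptide repeats, was at 73.7, 65.6, 71.1, 71.0 and 32.5 against 178, 308, 179, 204 and 153 CPM (log2 fold change -1.71, SE 0.25, adjusted p = 0.000397; interaction -3.99, adjusted p = 3.41e-05). LN4K1 lung replicate 5 was the lowest library for both genes. The members that were higher were Ifi205 (log2 fold change 2.6 in TIMs and 3.78 in BM IMs) and Ifi204 (1.37 and 2.15), DNA sensor genes of a cluster of close copies, and Irf9 (0.31 and 0.78), part of the interferon-activated transcription factor, which passed in 5 of the 10 fits without 1 TIM library. Without 1 TIM library, 15 to 21 members were lower (21 without LN4K1 lung replicate 3), and without 1 BM IM library all 6 fits called the 28 higher in DBA2 marrow.

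**Figure D3:**
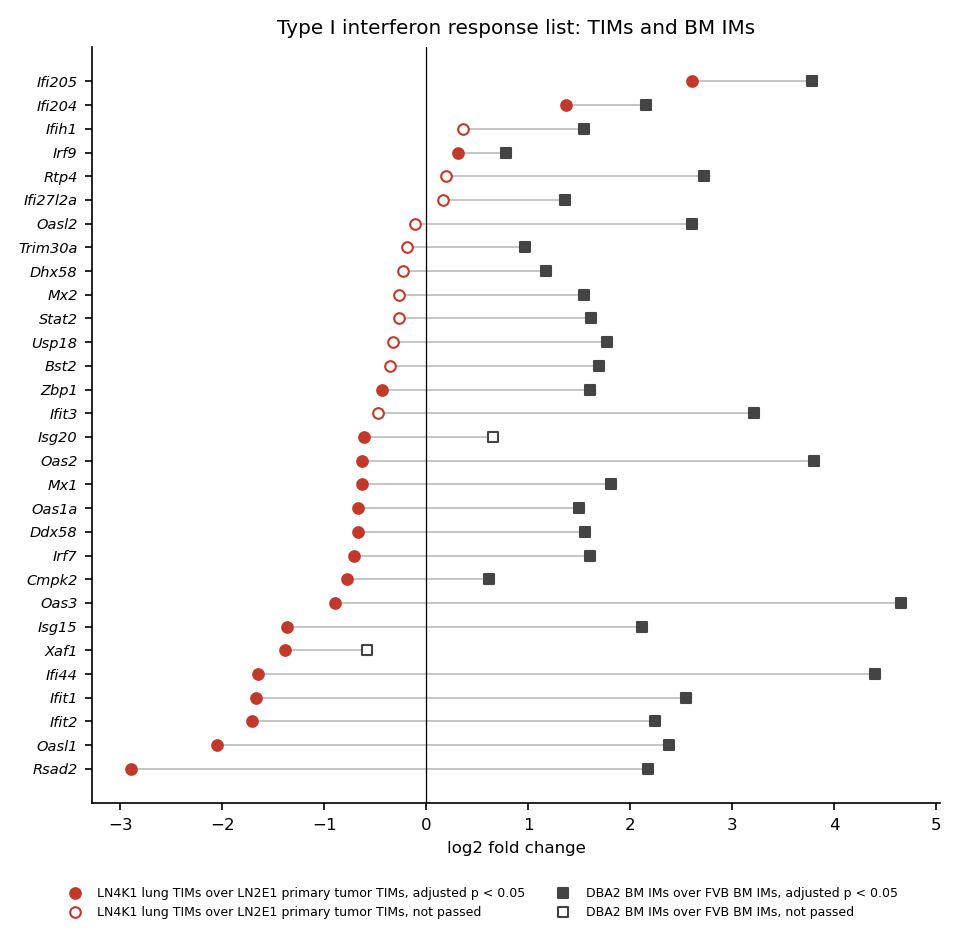
For each of the 30 genes of the type I interferon list, circles give the log2 fold change of LN4K1 lung over primary tumor TIMs and squares that of DBA2 over FVB BM IMs, filled where the adjusted p was under 0.05. The filled squares, 28 of 30, lie right of 0 and the filled circles mostly left of it, 16 against 3.

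Genes induced by interferon-gamma, the T cell and NK cell cytokine that activates macrophages, were lower in the same cells. Of 32 genes, 23 were lower and 2 higher in LN4K1 lung TIMs (median -0.93), and 15 of 31 were higher and 2 lower in DBA2 BM IMs (10 to 17 higher without 1 BM IM library, with 10 without FVB BM IM replicate 2). Cd274, which encodes the checkpoint ligand PD-L1, was at 53.9, 46.4, 34.6, 57.4 and 30.2 CPM in LN4K1 lung TIMs and 337, 303, 334, 310.0 and 283 CPM in primary tumor TIMs (log2 fold change -2.82, SE 0.19, adjusted p = 1.91e-06). Both TIM groups lay above marrow, where Cd274 was at 3.34 ± 0.724 CPM in DBA2 and 2.14 ± 0.812 CPM in FVB mice. Socs1, an inhibitor of cytokine signaling, was at 30.6, 24.4, 25.4, 27.1 and 26.8 against 51.2, 63.2, 72.6, 56.0 and 71.8 CPM (log2 fold change -1.24, SE 0.12, adjusted p = 2.74e-05), and Cxcl11, a chemokine for activated T cells, at 38.1, 24.8, 36.6, 28.2 and 22.5 against 115, 139, 96.6, 100.0 and 89.0 CPM (log2 fold change -1.86, SE 0.18, adjusted p = 2.77e-05). No library of one group reached the other for these 3 genes. Nos2, the inducible nitric oxide synthase, was at 2.01, 0.774, 0.0135, 0.748 and 0.265 CPM against 44.9, 32.8, 42.0, 28.8 and 20.7 CPM (log2 fold change -5.46, SE 0.76, adjusted p = 0.000281). The higher members were Gbp6, a guanylate-binding protein (log2 fold change 0.64, SE 0.23, adjusted p = 0.0430), and the immunoproteasome subunit gene Psmb9, and they passed in 2 and 4 of the 10 fits without 1 TIM library.

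The promoters of the interferon genes often held the element to which their factors bind. In windows of 250 bases before to 50 after the transcription start (RefSeq, GRCm38.p6), the letters GAAANNGAA, the core of the interferon-stimulated response element, were found on either strand for 13 of 21 type I genes with a window (61.9%) and 14 of 21 interferon-gamma genes (66.7%), against 8.97% of the 10886 tested genes with a window. Among the members that were lower in LN4K1 lung TIMs, 7 of 13 and 12 of 16 held them. The window of Rsad2 (chr12:26456403-26456702, minus strand) is shown because Rsad2 had the lowest adjusted p of the list members that were lower, with the match, here on the opposite strand, in capitals.
Rsad2: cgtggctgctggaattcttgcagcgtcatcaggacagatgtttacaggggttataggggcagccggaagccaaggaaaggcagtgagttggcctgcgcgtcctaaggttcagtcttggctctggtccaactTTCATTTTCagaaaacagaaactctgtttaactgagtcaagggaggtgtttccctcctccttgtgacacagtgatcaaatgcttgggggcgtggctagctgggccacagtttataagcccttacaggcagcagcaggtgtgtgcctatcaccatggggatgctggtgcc

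MHC genes of both classes were found in both directions. Of 15 class II genes, H2-Eb1, H2-Ea-ps and H2-DMa were higher in LN4K1 lung TIMs and 8 were lower (median -0.77). H2-Ea-ps (log2 fold change 2.81, SE 0.25, adjusted p = 1.52e-05) and H2-Eb1 form I-E, and H2-DMa, which helps to load peptides, was at 675, 637, 847, 728 and 677 against 483, 409, 391.8, 374 and 376 CPM (log2 fold change 0.80, SE 0.11, adjusted p = 0.000214). The lower members included H2-DMb2 (115 ± 16.7 against 203 ± 28.8 CPM, log2 fold change -0.83, SE 0.13, adjusted p = 0.000568) and H2-Oa and H2-Ob, the chains of a modulator of peptide loading, at 1.48 ± 0.445 against 7.87 ± 2.54 and 1.14 ± 0.534 against 7.28 ± 1.66 CPM. Of 24 class I genes tested, 11 were higher and 7 lower (median 0.28). H2-T23, which encodes Qa-1, a ligand of inhibitory NK receptors, was at 1049, 909, 1006, 942 and 883 CPM against 222, 267, 193, 234 and 229.9 CPM (log2 fold change 2.05, SE 0.10, adjusted p = 2.68e-07), with a log2 fold change of 2.35 in BM IMs, and H2-Q2 at 204 ± 18.1 against 64.5 ± 6.05 CPM (1.66 in TIMs and 1.56 in BM IMs). Among those lower were H2-T10 (-0.54) and Nlrc5, the transactivator of class I genes, at 73.4, 63.1, 45.7, 84.8 and 53.2 against 125, 136, 134, 140.4 and 110.2 CPM (log2 fold change -1.02, SE 0.16, adjusted p = 0.0007). In BM IMs 11 of the 24 class I genes were higher and 2 lower in DBA2 mice.

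Of 23 classical monocyte genes, 11 were higher and 5 lower in LN4K1 lung TIMs (median 0.29), and 7 did not pass. Without 1 library, 8 to 11 were higher, and without LN4K1 lung replicate 3, 10 were higher and 7 lower. Ccr2, the receptor for marrow exit and recruitment, was at 2609, 2890.0, 2763, 2652 and 2331 CPM against 1005, 982, 1247, 1246 and 1189.6 CPM (log2 fold change 1.22, SE 0.11, adjusted p = 1.2e-05), and it also differed in BM IMs, at 1306 ± 62.2 against 718 ± 14 CPM. Hp, haptoglobin, was at 2319, 2099.8, 2653, 2272 and 2476 against 935, 969, 1456, 1139 and 1279.9 CPM (log2 fold change 1.02, SE 0.13, adjusted p = 0.000159) and Mgst1, a microsomal glutathione transferase, at 630.2, 621, 949, 611 and 819 against 289, 293, 387, 296 and 395 CPM (log2 fold change 1.12, SE 0.15, adjusted p = 0.00026), both with BM log2 fold changes that did not pass (-0.05 and -0.29). F13a1, coagulation factor XIII, was at 4206 ± 469.8 against 2789 ± 354 CPM (log2 fold change 0.59, SE 0.12, adjusted p = 0.00282). The lower members were led by Ly6a and Thbs1 and included fibronectin, Fn1 (1244 ± 239 against 2192 ± 314 CPM, log2 fold change -0.82, SE 0.15, adjusted p = 0.00144), and 3 were lower without primary tumor replicate 3.

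Of 30 macrophage genes, 16 were lower and 7 higher (median -0.72). The complement C1q chains C1qb and C1qc were at 7.71 ± 3.06 against 50.2 ± 29.2 CPM (log2 fold change -2.72, SE 0.40, adjusted p = 0.000406) and 5.82 ± 1.94 against 40.1 ± 22.5 CPM (log2 fold change -2.80, SE 0.38, adjusted p = 0.000231). The tetraspanins Cd63 and Cd81, of lysosome and surface membranes, were at 5.94, 8.32, 3.83, 10.6 and 12.2 against 44.9, 87.8, 40.4, 88.8 and 75.4 CPM (log2 fold change -3.05, SE 0.34, adjusted p = 7.47e-05) and 5.77, 5.93, 3.64, 8.41 and 7.89 against 46.2, 50.9, 21.1, 44.6 and 48.3 CPM (log2 fold change -2.75, SE 0.28, adjusted p = 3.87e-05). Among primary tumor libraries Cd63 was highest in replicates 4 and 2 and lowest in replicate 3, as was the summed level of fibroblast markers. Cd81 was lowest in replicate 3 too, but its order in the other libraries differed. The part of other cells in these 2 genes was not tested. Ms4a7 was at 17.9 ± 4.14 against 67.2 ± 12.6 CPM (log2 fold change -1.92, SE 0.17, adjusted p = 1.64e-05). C1qb, C1qc, Cd63, Cd81 and Ms4a7 were also lower in DBA2 than in FVB BM IMs, with BM log2 fold changes of -1.61, -1.59, -1.22, -0.92 and -1.88. Folr2, the folate receptor of tissue macrophages, went the other way, at 24.9, 22.9, 29.6, 23.1 and 26.6 CPM in LN4K1 lung TIMs and 1.18, 0.328, 1.34, 1.17 and 0.209 CPM in primary tumor TIMs (log2 fold change 4.90, SE 0.48, adjusted p = 2.79e-05), and at 37.3 ± 1.96 against 0.482 ± 0.247 CPM in BM IMs. Apoe, the lipid carrier apolipoprotein E (log2 fold change 0.90, SE 0.12, adjusted p = 0.000214), and Sepp1, selenoprotein P (log2 fold change 0.90, SE 0.09, adjusted p = 2.93e-05), were higher in every LN4K1 lung library, and Cx3cr1, the fractalkine receptor of patrolling monocytes, was at 279.7, 202, 267, 196 and 137 against 143, 98.2, 50.8, 77.8 and 131 CPM with overlap (log2 fold change 1.10, SE 0.28, adjusted p = 0.00964). Emr1, which encodes F4/80, was at 288 ± 58.4 against 194 ± 21.1 CPM (log2 fold change 0.56, SE 0.16, adjusted p = 0.0146) and overlapped between the groups, with LN4K1 lung replicate 3 the lowest of its group. In these bulk libraries, fewer cells of a type and less RNA per cell cannot be told apart.

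Glycolysis and hypoxia genes were mostly lower in LN4K1 lung TIMs. Of 38 genes, 29 were lower and none higher at an adjusted p under 0.05 (median -0.95), and the 29 included Slc2a1, Hk2, Pfkl, Aldoa, Gapdh, Pkm and Ldha, which take up glucose and turn it into lactate, and Slc16a3, which exports it. Without LN4K1 lung replicate 3, 31 were lower and 1 higher. Slc2a1, the glucose transporter GLUT1, was at 132, 116, 80.9, 131 and 116 CPM in LN4K1 lung TIMs and 468, 539, 599, 521 and 418 CPM in primary tumor TIMs (log2 fold change -2.15, SE 0.15, adjusted p = 3.58e-06). P4ha1, a prolyl hydroxylase of collagen chains, was at 51.4, 47.2, 43.0, 59.3 and 45.6 against 144, 164, 141, 146 and 131 CPM (log2 fold change -1.57, SE 0.11, adjusted p = 2.99e-06), and Vegfa, the vascular growth factor, at 26.7, 19.9, 26.9, 37.7 and 28.0 against 169, 170.0, 265, 186 and 149 CPM (log2 fold change -2.76, SE 0.20, adjusted p = 3.64e-06). The groups did not overlap for 29 of the 38 members of the list, against 4929 of all 13845 genes tested (35.6%). In BM IMs 10 of 36 list members were lower and 7 higher in DBA2 mice, with log2 fold changes of -0.82 for Slc2a1, -0.40 for P4ha1 and 1.05 for Vegfa, the last of these in the direction opposite to that in TIMs. The interaction was called for 19 of 38, each below 0. Summed over the list, CPM ran from 4182 in LN4K1 lung replicate 3 and 5465 to 5658 in its other 4 libraries to 8837 to 11223 in primary tumor TIMs.

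The core of the hypoxia response element, ACGTG or GCGTG on either strand, was found in the promoter windows of 33 of 35 genes of this list (94.3%) and in 26 of the 28 with a window that were lower, against 65.3% of all tested genes, a share that shows how often so short a motif occurs in promoters. The windows of Slc2a1 (chr4:119108495-119108794, plus strand, 2 matches) and P4ha1 (chr10:59323046-59323345, plus strand, 3 matches) are shown as the genes with the lowest adjusted p in the list, with the matches in capitals. A match is a stretch of letters and not a measured binding site.
Slc2a1: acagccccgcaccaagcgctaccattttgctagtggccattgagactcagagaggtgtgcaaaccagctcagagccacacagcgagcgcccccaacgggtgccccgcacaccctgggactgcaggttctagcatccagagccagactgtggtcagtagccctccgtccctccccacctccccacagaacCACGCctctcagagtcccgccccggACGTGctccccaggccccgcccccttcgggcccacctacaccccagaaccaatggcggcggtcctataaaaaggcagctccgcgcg
P4ha1: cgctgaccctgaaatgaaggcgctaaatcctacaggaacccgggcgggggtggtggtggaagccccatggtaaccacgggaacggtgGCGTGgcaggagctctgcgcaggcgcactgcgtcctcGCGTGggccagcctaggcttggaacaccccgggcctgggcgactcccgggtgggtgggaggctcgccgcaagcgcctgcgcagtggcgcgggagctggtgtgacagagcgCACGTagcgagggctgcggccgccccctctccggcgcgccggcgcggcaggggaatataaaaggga

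Genes of lipid handling and lysosomes in tumor macrophages were lower as well. Of 30 genes, 20 were lower and 2 higher (median -1.36). Fabp5, a fatty acid-binding protein, was at 3.83, 3.6, 4.93, 3.54 and 4.98 CPM in LN4K1 lung TIMs and 27.2, 35.8, 39.4, 32.8 and 30.5 CPM in primary tumor TIMs (log2 fold change -3.00, SE 0.15, adjusted p = 2.79e-07). Its strain difference in BM IMs was smaller but in the same direction (-1.52). Cd9, a tetraspanin, was at 23.8, 28.0, 23.7, 37.0 and 37.0 against 108, 125, 129, 141 and 142 CPM (log2 fold change -2.12, SE 0.15, adjusted p = 3.94e-06), and Acp5, a lysosomal acid phosphatase, at 18.6 ± 2.21 against 112 ± 16.9 CPM (log2 fold change -2.6, SE 0.13, adjusted p = 2.68e-07; -2.25 in BM IMs). Gpnmb, a lysosomal glycoprotein that carries a truncating allele in a DBA/2 substrain, was at 1.53 ± 1.08 against 23.4 ± 8.72 CPM (log2 fold change -3.94, SE 0.55, adjusted p = 0.000298). Higher was Plin2, which coats lipid droplets (884 ± 91.1 against 633 ± 104 CPM, log2 fold change 0.47, SE 0.12, adjusted p = 0.0111).

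**Figure D4:**
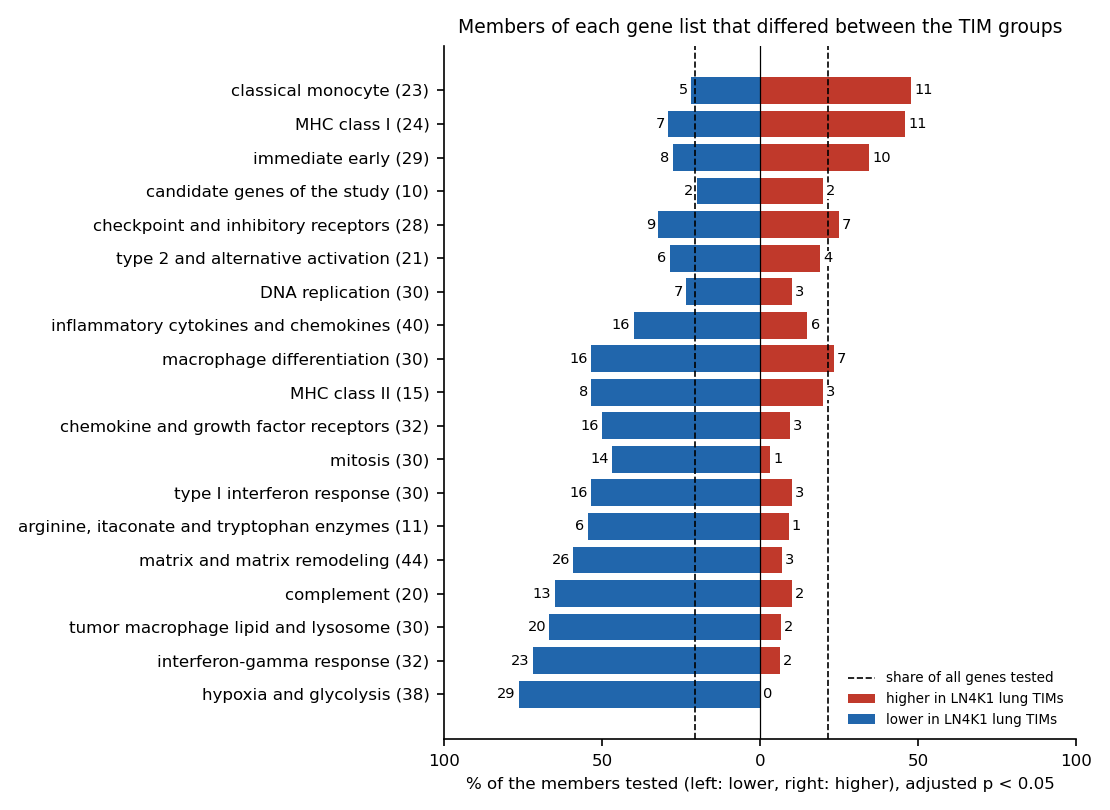
Bars give, for each gene list, the percentage of its tested members (number in brackets) that were higher (red, right) or lower (blue, left) in LN4K1 lung TIMs at an adjusted p under 0.05, with the number of genes at each bar's end. Dashed lines mark the shares over all genes tested, 21.5% higher and 20.4% lower, and the hypoxia and glycolysis list, with 29 of 38 lower, and the interferon-gamma list, with 23 of 32 lower, extend farthest to the left.

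Cytokines and their receptors were lower more often than higher. Of 40 cytokine and chemokine genes tested, 16 were lower and 6 higher (median -0.73), and without LN4K1 lung replicate 3, 21 of 42 were lower and 6 higher. Il1rn, the interleukin 1 receptor antagonist, was at 255, 159.9, 269.9, 201 and 146 against 813, 741, 933, 643 and 624 CPM (log2 fold change -1.87, SE 0.19, adjusted p = 4.24e-05), Cxcl16, a chemokine and scavenger receptor, at 39.2 ± 8.97 against 127 ± 26.1 CPM (log2 fold change -1.70, SE 0.19, adjusted p = 6.16e-05), and Ccl8, a monocyte chemokine, at 0.746 ± 0.338 against 10.4 ± 2.70 CPM (log2 fold change -3.80, SE 0.35, adjusted p = 2.04e-05). Besides Ccl3, Ccl6 (2494 ± 659.9 against 1297 ± 231 CPM, log2 fold change 0.93, SE 0.18, adjusted p = 0.00199) and Ccl24, an eosinophil chemokine (26.8, 18, 16.8, 33.4 and 28.3 against 4.54, 3.00, 11.4, 2.56 and 5.12 CPM, log2 fold change 2.2, SE 0.40, adjusted p = 0.00137), were higher. Of 32 receptor genes, 16 were lower and 3 higher, or 19 and 6 without LN4K1 lung replicate 3. Ccr7, which guides dendritic cells to lymph nodes, was at 0.959, 0.439, 2.19, 1.01 and 1.27 against 15.4, 19.9, 17.8, 32.0 and 31.9 CPM (log2 fold change -4.33, SE 0.41, adjusted p = 2.18e-05). Il1r1, the signaling receptor for interleukin 1, was at 0.834 ± 0.338 against 8.47 ± 2.65 CPM (log2 fold change -3.34, SE 0.38, adjusted p = 8.4e-05), and Htr7, a serotonin receptor, at 7.14 ± 1.47 against 38 ± 6.64 CPM (log2 fold change -2.42, SE 0.17, adjusted p = 3.49e-06).

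Among 28 checkpoint and inhibitory receptor genes, 9 were lower and 7 higher (median -0.50), and without LN4K1 lung replicate 3, 13 of 29 were lower and 9 higher. Besides Cd274, the second PD-1 ligand Pdcd1lg2 was lower, at 1.41, 1.2, 2.51, 1.49 and 0.707 against 10.5, 7.15, 9.70, 7.04 and 8.29 CPM (log2 fold change -2.55, SE 0.31, adjusted p = 0.000126), as was the costimulatory ligand Cd86, at 110.1, 98.4, 148, 121 and 96.1 against 277, 249, 293, 232 and 227 CPM (log2 fold change -1.16, SE 0.14, adjusted p = 8.94e-05). Cd72, an inhibitory lectin receptor of B and myeloid cells, was at 0.959, 0.429, 0.0135, 1.2 and 0.475 CPM against 72.4, 33.9, 25.9, 31.6 and 40.1 CPM (log2 fold change -6.04, SE 0.68, adjusted p = 7.64e-05), and its exons overlap Tesk1. Among the 7 higher members were Clec12a, an inhibitory lectin receptor of myeloid cells, at 502, 466, 711, 457 and 571 against 201, 186, 223, 167 and 226 CPM (log2 fold change 1.42, SE 0.14, adjusted p = 2.77e-05), Cd200r1, the inhibitory receptor for CD200, at 79.2, 75.5, 84.3, 82.9 and 86.0 against 32.0, 37.5, 42.2, 35.4 and 36.5 CPM (log2 fold change 1.14, SE 0.09, adjusted p = 7.46e-06) and its relative Cd200r4 at 7.22 ± 1.31 against 0.795 ± 0.183 CPM (log2 fold change 3.17, SE 0.24, adjusted p = 5e-06).

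Enzymes of arginine and related metabolism were lower for 6 of 11 genes and higher for 1, or 6 and 0 of 12 without LN4K1 lung replicate 3. Besides Nos2, Arg2, the mitochondrial arginase, was at 17.9, 20.7, 18.7, 18.9 and 25.4 against 48.1, 49.4, 59.0, 66.8 and 51.8 CPM (log2 fold change -1.45, SE 0.13, adjusted p = 1.49e-05), and the cystine importer gene Slc7a11 at 13.7 ± 3.23 against 63.1 ± 30.4 CPM (log2 fold change -2.21, SE 0.29, adjusted p = 0.000192), with primary tumor replicate 3 far above the rest at 117 CPM. Of 21 genes of type 2 activation, 6 were lower and 4 higher, or 9 and 3 without LN4K1 lung replicate 3. Il1rl1, the receptor for interleukin 33, had the largest fitted fold change among the named genes, at 0.497, 1.29, 0, 0.656 and 0.0111 CPM in LN4K1 lung TIMs and 104, 237, 65.8, 273 and 175 CPM in primary tumor TIMs (log2 fold change -8.41, SE 0.95, adjusted p = 7.52e-05). Among primary tumor libraries it was highest in replicates 4 and 2 and lowest in replicate 3, as was the summed level of fibroblast markers, and the part of other cells in it was not tested. Mgl2, a galactose lectin, was at 2.28 ± 1.09 against 10.2 ± 0.801 CPM (log2 fold change -2.18, SE 0.29, adjusted p = 0.000212). Egr2 (43.1, 53.6, 42.0, 75.3 and 60.9 against 20.6, 14.8, 21, 22 and 20.5 CPM, log2 fold change 1.46, SE 0.18, adjusted p = 0.000114) and Irf4 (16.8, 15.3, 19.3, 12.0 and 14.4 against 6.15, 7.29, 2.97, 6.76 and 7.13 CPM, log2 fold change 1.35, SE 0.24, adjusted p = 0.00119), transcription factors of alternative activation, were higher in every LN4K1 lung library.

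Matrix genes were more often lower than higher. Of 44 genes of matrix and matrix remodeling, 26 were lower and 3 higher (median -1.76). Besides Thbs1 and Mmp2, Ecm1, extracellular matrix protein 1, was at 103, 83.1, 70.1, 109.5 and 119.6 CPM in LN4K1 lung TIMs and 446, 421, 779, 435 and 374 CPM in primary tumor TIMs (log2 fold change -2.35, SE 0.22, adjusted p = 2.26e-05), and Mmp13, a collagenase, at 0.601, 0.679, 1.91, 0.922 and 1.07 against 9.95, 15.3, 17.6, 24.2 and 15.6 CPM (log2 fold change -4.01, SE 0.36, adjusted p = 1.54e-05). The 3 higher genes were Spon1, F13a1 and Mmp8, a collagenase of granulocytes (828 ± 118 against 614 ± 87.6 CPM, log2 fold change 0.42, SE 0.12, adjusted p = 0.0183), the last of which lost the call without primary tumor replicate 4 (adjusted p = 0.0507). Fibroblast markers moved with this list: 12 of 13 were lower in LN4K1 lung TIMs, and their summed level was 9.26 to 63.3 CPM in LN4K1 lung against 456 to 1309 CPM in primary tumor libraries. Col1a1, a defining marker, was at 0, 0, 0, 1.77 and 1.61 CPM in LN4K1 lung TIMs and 21.7, 33.0, 26.8, 41.4 and 24.8 CPM in primary tumor TIMs. The part of fibroblast RNA in the matrix genes was not tested.

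Complement genes were lower for 13 of 20 and higher for 2. Cd93, a surface receptor of myeloid and endothelial cells, was higher at 169.6 ± 60.5 against 72.5 ± 20.4 CPM (log2 fold change 1.21, SE 0.24, adjusted p = 0.00250), and it was also higher in DBA2 BM IMs (1.49). Itgax, which encodes CD11c, a complement receptor chain and marker of dendritic and alveolar cells, was at 11, 9.99, 6.99, 15.5 and 6.37 against 90.7, 54.2, 46.9, 59.9 and 55.0 CPM (log2 fold change -2.63, SE 0.27, adjusted p = 4.25e-05).

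Cell cycle genes were expressed at a low level in both TIM groups: the 30 mitosis genes summed to 153 to 203 CPM in LN4K1 lung, 174 to 363 CPM in primary tumor, 4213 to 4635 CPM in DBA2 marrow and 3744 to 4330.1 CPM in FVB marrow libraries. Of 30 DNA replication genes, 7 were lower and 3 higher in LN4K1 lung TIMs, or 10 and 2 without LN4K1 lung replicate 3, and without 1 library 5 to 10 were lower and 1 to 3 higher, with 1 higher without LN4K1 lung replicate 5. Over all genes tested 20.4% were lower and 21.5% higher, so the share of the list that was lower was near that of all genes. Those that differed included Mcm6, of the replicative helicase (8.70, 13.3, 4.48, 8.15 and 10.9 against 27.0, 38.5, 10.8, 37.1 and 27.9 CPM, log2 fold change -1.64, SE 0.35, adjusted p = 0.00377), Pcna, the polymerase clamp (59.0 ± 11 against 44.3 ± 3.42 CPM, log2 fold change 0.40, SE 0.12, adjusted p = 0.0231), and E2f1 (24.8 ± 5.29 against 16.1 ± 2.59 CPM, log2 fold change 0.62, SE 0.18, adjusted p = 0.0172). For Mcm6 the groups overlapped through primary tumor replicate 3, and Pcna lost the call without LN4K1 lung replicate 5 (adjusted p = 0.0589) or primary tumor replicate 4 (adjusted p = 0.0634). Of 30 mitosis genes, 14 were lower and 1 higher, and the number lower was 7 without primary tumor replicate 2 or 4 and 8 without primary tumor replicate 5 or LN4K1 lung replicate 1 or 5. Aurka, a spindle kinase, was at 7.68 ± 1.11 against 14.8 ± 2.44 CPM (log2 fold change -0.96, SE 0.16, adjusted p = 0.000918), Prc1 at 3.47 ± 0.751 against 10.4 ± 4.78 CPM (log2 fold change -1.59, SE 0.31, adjusted p = 0.00238) and Nek2 at 0.742 ± 0.235 against 3.86 ± 1.58 CPM (log2 fold change -2.39, SE 0.39, adjusted p = 0.000787), whereas Aurkb was at 18.3 ± 3.65 against 11.7 ± 1.98 CPM (log2 fold change 0.63, SE 0.17, adjusted p = 0.0141). Immediate early genes, which respond within minutes to stimulation and to cell handling, were higher for 10 of 29 and lower for 8. Junb was at 6082, 6445, 4920.0, 5956 and 6666 against 3599, 3619, 3975, 3537 and 3635 CPM (log2 fold change 0.70, SE 0.10, adjusted p = 0.000276) and Ier2 at 1895, 2108, 1935, 1956 and 2433 against 970.4, 915, 932, 878 and 954 CPM (log2 fold change 1.14, SE 0.09, adjusted p = 5.79e-06). Myc (15, 13.6, 10.4, 23 and 16.3 against 48.9, 92.5, 71.1, 99.7 and 69.5 CPM, log2 fold change -2.29, SE 0.24, adjusted p = 4.32e-05), Nr4a2 (11.3 ± 6.11 against 46.7 ± 9.27 CPM, log2 fold change -2.06, SE 0.35, adjusted p = 0.00092) and the heat shock gene Dnajb1 (104 ± 13.6 against 150.1 ± 4.10 CPM, log2 fold change -0.54, SE 0.10, adjusted p = 0.00126) were lower.

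Of the 10 genes that the study carried forward, 2 were higher and 2 lower in LN4K1 lung TIMs. These counts were near the shares over all genes tested, 21.5% higher and 20.4% lower. The study had chosen the 10 genes on these samples against BM IMs, so they are no independent evidence. Spon1, the matrix protein spondin 1, was at 189, 217, 59.3, 190.1 and 104 CPM in LN4K1 lung TIMs and 57.6, 70.8, 43.1, 61.7 and 35.2 CPM in primary tumor TIMs (log2 fold change 1.5, SE 0.33, adjusted p = 0.00476). The groups overlapped through LN4K1 lung replicate 3, at 59.3 CPM, without which the log2 fold change was 1.69 (adjusted p = 0.000320), and in BM IMs Spon1 was at 12.6 ± 4.70 CPM in DBA2 and 0.0805 ± 0.0800 CPM in FVB mice. Socs3, a feedback inhibitor of interleukin 6 signaling, was at 3383, 4482, 1082, 2606 and 3849 against 1515, 1399.8, 1493, 1367 and 1432 CPM (log2 fold change 1.09, SE 0.29, adjusted p = 0.0125), again with replicate 3 the only LN4K1 lung library within or under the primary tumor range, and a log2 fold change of 1.30 without it (adjusted p = 2.53e-05). Csrnp1, a nuclear protein, was lower at 241, 202, 178, 252 and 174 against 372, 316, 498, 410.2 and 406 CPM (log2 fold change -0.94, SE 0.15, adjusted p = 0.000657), as was complement factor B, Cfb, at 422, 396, 228, 427 and 258 against 659.9, 674, 574, 647 and 409 CPM with overlap (log2 fold change -0.78, SE 0.21, adjusted p = 0.0122). For the other 6 genes the difference did not pass: the log2 fold changes were -0.27 for Il1b (SE 0.27, adjusted p = 0.447), -0.09 for Icam1 (SE 0.18, adjusted p = 0.700), 0.02 for Sdcbp (SE 0.10, adjusted p = 0.877), -0.09 for Gadd45b (SE 0.14, adjusted p = 0.644), -0.07 for Klf7 (SE 0.16, adjusted p = 0.775) and 0.11 for Ifitm2 (SE 0.10, adjusted p = 0.399). Il1b, interleukin 1 beta, was at 994, 1066, 2732, 1824 and 1101 CPM in LN4K1 lung TIMs and 1459.9, 1953, 1685, 2371 and 1772 CPM in primary tumor TIMs, and LN4K1 lung replicate 3 held its highest value, without which Il1b was lower in LN4K1 lung TIMs (log2 fold change -0.58, adjusted p = 0.0285).

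Markers of other cell types differed between the groups as well. Lung epithelial genes were lower in LN4K1 lung TIMs for 12 of 15 and higher for 1, and the surfactant gene Sftpc was at 65.3, 23.2, 1.67, 2.36 and 1.26 against 141, 43.5, 126, 236 and 623 CPM (log2 fold change -3.63, SE 1.17, adjusted p = 0.0279) and the club cell gene Scgb1a1 at 24.9, 4.68, 4.81, 27.4 and 5.17 against 23.8, 74.4, 79.1, 187 and 74.6 CPM (log2 fold change -2.71, SE 0.67, adjusted p = 0.00838), and both genes overlapped between the groups. Sftpc lost the call without LN4K1 lung replicate 3 (adjusted p = 0.0541) or primary tumor replicate 5 (adjusted p = 0.0710). Squamous epithelial genes summed to 1.37 to 40.1 CPM in LN4K1 lung and 52.2 to 82.9 CPM in primary tumor libraries, and 2 of the 5 members with enough counts for a test were lower, or 4 of 7 without LN4K1 lung replicate 3. Neutrophil precursor genes went the other way, higher for 7 of 10 and lower for none, with sums of 241 to 648 against 52.0 to 198 CPM. Mpo, myeloperoxidase of granule precursors, was at 45.0, 59.3, 20.2, 61.9 and 79.4 against 1.52, 0.950, 3.28, 5.67 and 0.325 CPM (log2 fold change 4.49, SE 0.69, adjusted p = 0.000526), Elane, neutrophil elastase, at 20 ± 15.8 against 1.31 ± 0.870 CPM (log2 fold change 3.92, SE 0.62, adjusted p = 0.000622) and Camp, cathelicidin, at 26 ± 19.7 against 2.25 ± 3.67 CPM (log2 fold change 3.51, SE 1.2, adjusted p = 0.0359), the last passing in 4 of the 10 fits without 1 library, whereas the mature neutrophil list was higher for 2 and lower for 3 of 11. Marrow libraries held far more, with 1624 ± 108 CPM of Mpo in DBA2 BM IMs. Eosinophil genes were higher for 2 and lower for 1 of 8, with the median of the sums at 33.4 CPM in LN4K1 lung and 33.9 CPM in primary tumor libraries, and Prg2, eosinophil major basic protein, was at 1.06, 8.47, 0.948, 59.1 and 1.6 against 0, 0, 0.222, 0.0220 and 0.0116 CPM (log2 fold change 8.10, SE 1.66, adjusted p = 0.00293), with LN4K1 lung replicate 4 far above the rest. NK cell genes were higher for 4 and lower for 2 of 10 and T cell genes higher for none and lower for 1 of 9 (3 of 10 without LN4K1 lung replicate 3), with sums that overlapped, and Gzma, granzyme A of both cell types, was at 4.46, 5.78, 5.48, 4.39 and 9.14 against 0.0972, 0, 0, 0.772 and 0.0348 CPM (log2 fold change 4.99, SE 1.14, adjusted p = 0.00533). Klrd1, used above as a strain check, was among the lower NK cell genes. Sftpc, Scgb1a1, Mpo, Elane, Camp, Prg2, Gzma and Col1a1 were chosen after their values were seen.

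**Figure D5:**
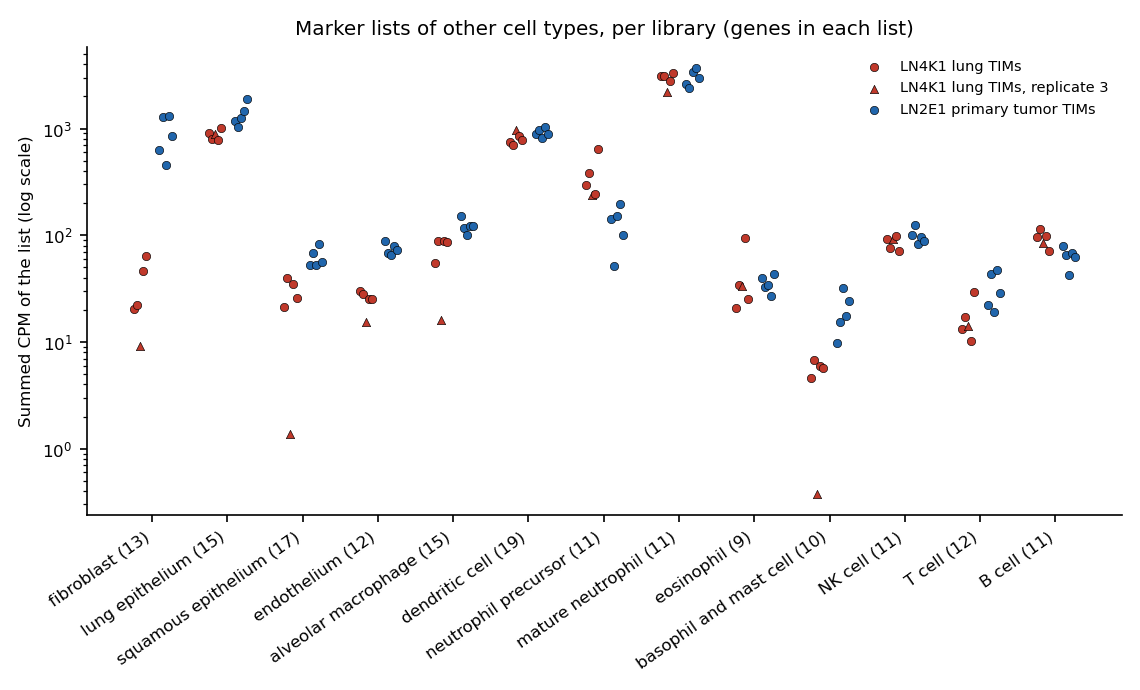
Points give the CPM summed over each marker list (number of genes in brackets) in each library on a log axis, for LN4K1 lung TIMs (red, with replicate 3 as a triangle) and LN2E1 primary tumor TIMs (blue). Fibroblast sums of 456 to 1309 CPM in primary tumor TIMs lie above those of 9.26 to 63.3 CPM in LN4K1 lung TIMs, neutrophil precursor sums lie in the opposite order, and replicate 3 is the lowest LN4K1 lung library for fibroblast, squamous, endothelial, alveolar macrophage and basophil lists.

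The remaining lists held smaller or mixed differences. Alveolar macrophage genes were lower for 4 of 10 and higher for none at an adjusted p under 0.05, with sums of 16 to 88.0 against 101 to 151 CPM. Their sums were also lower in DBA2 BM IMs of tumor-free mice, at 43.6 to 91.2 CPM against 131 to 159 CPM in FVB BM IMs. Dendritic cell genes were lower for 9 of 19 and higher for 3, and their sums overlapped at 696 to 959.9 and 816 to 1043 CPM. Endothelial genes were lower for 3 of 11 and higher for 1, with sums of 15.5 to 30.3 against 65.9 to 88.5 CPM. Sums over the T cell list were 10.3 to 29.7 and 19.0 to 47.1 CPM, over the B cell list 71.2 to 115 and 42.6 to 79.7 CPM, over the NK cell list 71.6 to 99.4 and 82.1 to 124 CPM, over the basophil and mast cell list 0.379 to 6.71 and 9.89 to 31.9 CPM and over the eosinophil list 21 to 94.0 and 26.7 to 43.3 CPM. Basophil and mast cell sums were also lower in DBA2 BM IMs, at 13.97 to 28.7 CPM against 238 to 289 CPM in FVB BM IMs. Endothelial sums had the reverse order in marrow, at 24.2 to 30.5 CPM in DBA2 and 16.1 to 24.04 CPM in FVB BM IMs. Whether the sums in TIMs differed through the strain or through the cells sorted was not tested. The part of these cells' RNA in the other differences was not tested.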

How the data were processed

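RNA was measured by RNA-seq in sorted monocytes, 1 library per sample. The deposited values are read counts per gene: per the labels and the study's methods, the authors made libraries from low-input RNA with an unstranded kit, trimmed and aligned reads with BBTools to mm10 and counted them with featureCounts (1.5.2, Subread), with SAMtools 1.8 in between, and the counting options and annotation are not given in the sources used here. Multi-mapping and overlapping reads therefore cannot be traced. Every column of the table matched 1 sample by its name, and no pair of libraries held identical counts.

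From the counts, edgeR 4.0.16 (R 4.3.3, limma 3.58.1) was run with TMM scaling, a filter of at least 10 counts (filterByExpr, minimum total 15), robust quasi-likelihood fits and Benjamini-Hochberg adjustment over all genes tested. All adjusted p-values in the text are from this test unless DESeq2 (1.42.0) is named. Standard errors are approximate, computed as the size of the log2 fold change over the root of its F value. LN4K1 lung and LN2E1 primary tumor TIMs were fitted with these 10 libraries alone, DBA2 and FVB BM IMs with theirs, and the interaction with both. CPM used TMM factors over all 21 libraries, and a count floor of 3 stands at 0.0308 to 0.0406 CPM, for counting error only. Tables and plots were made with Python 3.11.15, numpy 2.4.6, pandas 2.3.3 and matplotlib 3.10.9. The fits were tested on simulated counts.

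The members, gene lists and tests were chosen with earlier results of these data known. Named genes were the 10 DEGs per direction with the largest change among those with a mean log2 CPM above 3 and no overlap between groups, 5 per direction each among strain-shared and TIM-only DEGs, the 3 per direction with the lowest adjusted p in each list, the candidate genes, and the sort and strain checks. A few of these are not described in the text, and marker genes added later are named as such. Alternatives were DESeq2 scaling, DESeq2, no filter and a stricter filter on counts, 1 fit of all 5 groups, the replicate number as a block and leaving out each library. TIMs of lymph node metastases entered only the fit of all 5 groups. Positions are from the GENCODE annotation of GRCm38, and 13710 of 13845 tested genes matched by symbol.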

Additional observations from a re-analysis of the deposited data

Results flagged for a closer look

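Single libraries stood apart from the other 4 of their group in 32 of 344 sets of values examined, by a test of the gap to the nearest library for which chance gives about 5% of sets, and 15 of the 32 were in LN4K1 lung replicate 3. That library was lowest for Cd72 (0.0135 CPM), Ddx23 (2.14 CPM), Emr1 (187 CPM), H2-Oa (0.731 CPM), Pde2a (0.0948 CPM) and Slc2a1 (80.9 CPM). It was highest for Ifi205 (87.2 CPM) and Sdcbp (1502 CPM). Among summed lists it was lowest for hypoxia and glycolysis (4182 CPM), basophil and mast cell (0.379 CPM), alveolar macrophage (16 CPM), squamous epithelium (1.37 CPM), endothelium (15.5 CPM) and immediate early genes (31631 CPM). It also had the fewest genes with at least 10 counts, 12015. LN4K1 lung replicate 5 was lowest for Ifi44 (3.36 CPM) and Ifit2 (32.5 CPM).

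Among primary tumor TIMs, replicate 3 stood apart for Cd81 (21.1 CPM), Ecm1 (779 CPM), H2-Oa (3.44 CPM), Irf4 (2.97 CPM), Junb (3975 CPM), Mcm6 (10.8 CPM), Ms4a8a (16.6 CPM), Nr4a2 (63.0 CPM), Prg2 (0.222 CPM), Slc7a11 (117 CPM) and the matrix list (26824 CPM summed). Replicate 4 was lowest for Ccl3 (114 CPM), replicate 2 for Egr2 (14.8 CPM), replicate 5 for Gpnmb (8.70 CPM) and replicate 1 stood apart for Ifi205 (7.20 CPM).

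By the interaction test of edgeR, the LN4K1 lung and primary tumor TIM difference was unequal to the DBA2 and FVB BM IM difference for 27 genes. This was at an adjusted p under 0.05. The genes looked at were those named for the TIM and BM differences, the candidates, the sort markers, Rsad2, Ifi44 and Ifit2. Over all genes tested for the interaction, 4022 of 15182 (26.5%) were called. Ly6a, Thbs1, Mmp2, Sipa1l1, Ets1, Fcgrt, Ccl3, Klrb1f, Cbx8 and N6amt1 were named by a rule that required a called interaction. Their calls are therefore no result. The interaction, in log2 units, was above 0 for Kcne3 (2.48), Klrb1f (2.45), Nim1 (2.27), Ccl3 (2.09), P2rx1 (1.87), Fcgrt (1.45), N6amt1 (1.45), Cbx8 (1.19) and Rab35 (0.93). It was below 0 for the interferon-induced genes Ifi44 (-6.08), Rsad2 (-5.11) and Ifit2 (-3.99) and for Ly6a (-3.95). Among genes of the matrix and its remodeling it was below 0 for Spon1 (-5.91), Mmp2 (-5.87) and Thbs1 (-3.75). Unlike Mmp2 and Thbs1, Spon1 was higher in LN4K1 lung TIMs. Its level in FVB BM IMs was near the floor, so its BM difference and its interaction depend on few counts. Of the candidates of the study, Cfb (-2.55) and Csrnp1 (-2.28) were below 0 too. The others below 0 were Fam46c (-5.33), Sipa1l1 (-3.51), Ets1 (-2.73), Gpr132 (-2.52), Vill (-1.95), Itgam (-1.46), Mocs1 (-1.15), H2-Q5 (-0.67) and Ptprc (-0.58).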

How the results depend on the processing

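For the comparison of LN4K1 lung with LN2E1 primary tumor TIMs, the number of genes that differed, in all and in each direction, stayed within 1.5 times its value under every alternative. The 437 DEGs became 1745 with DESeq2 (1725 with shrunken fold changes) and 189 to 645 without 1 library. The 196 strain-shared DEGs became 485 with DESeq2 (483 shrunken) and 119 to 257 without 1 library. The 2719 genes that differed between BM IMs became 1595 with all 5 groups in 1 fit and 1115 to 4828 without 1 library. Deviations of same-numbered libraries correlated above 0.1 for 3 of 5 numbers (0.000571 to 0.195), and 3 of 5 correlated best with their own number. Whether replicate numbers pair the libraries was not settled by these values, and the main fit did not pair them. With the replicate block, 34 DEGs, 27 of them strain-shared, and 5436 differing genes were called. The cause of these moves was not tested.

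Of 1530 values of single genes without 1 library, 1453 kept direction and side of the threshold, 58 lost the call, 3 gained it and 16 changed sign, and of 765 under other settings these numbers were 738, 22, 2 and 3. Changes of sign befell uncalled genes. Without 1 library, the log2 fold change ranged from -0.16 to 0.0139 for Gadd45b, -0.19 to 0.0325 for Icam1, -0.15 to 0.0351 for Klf7, -0.12 to 0.0155 for Ly6c1, -2.55 to 0.97 for Marco, an alveolar macrophage receptor, -0.0436 to 0.0771 for Sdcbp and -0.46 to 0.16 for Siglec5. Marco was at -1.12 with the replicate block, and Sdcbp at -0.0220 with DESeq2 scaling and -0.0231 with DESeq2.

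With 5 libraries a group of unknown independence, the p-values cover the spread between libraries only. Genes near the floor, such as Il1rl1, Nos2, Cd72 and Prg2 in the lower group, have fold changes that depend on few counts. The BM fold change and the interaction of Spon1, near the floor in FVB BM IMs, do so too.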
